A study of Mus musculus with 12 samples.

Results

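Cell cycle genes are transcribed when a cell copies its DNA and divides, and their messages show which cells of a tissue were dividing when it was taken. The set described here has 34 genes of the 31053 measured. They were listed by symbol: 11 replication genes, 21 mitotic genes and 2 genes that dividing cells make in larger amounts but other cells also make. A cell was called cycling when it held 2 or more unique molecular identifiers (UMIs, each a counted transcript) of Mki67, which encodes the proliferation antigen Ki-67, and Top2a, which encodes the topoisomerase that untangles chromosomes, counted as 1 sum.

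As background, cells that pass the G1 checkpoint release E2F transcription factors, which switch on genes for copying DNA, such as those of the Mcm helicase and the nucleotide-making enzymes. Later, in G2 and mitosis, the MuvB complex with B-Myb and Foxm1 switches on genes for the spindle, the kinetochores and the degradation of cyclins. Activated T cells and germinal centre B cells divide rapidly, erythroid progenitors divide as they mature, developing T cells divide in the thymus, and mature neutrophils no longer divide.

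The study compared mouse cells from 3 sources: a transplanted trachea (tracheal allograft), trachea that the labels call native, and spleen. The labels give 4 samples for each source and name the tracheal cells mesenchymal progenitors and the spleen cells splenocytes. They give no strain, sex, age, time after transplantation or treatment. The 4 samples of a source were deposited in 1 matrix with no map from cells to samples, so each source is 1 library, no test of a difference between sources could be made, and each interval below covers counting error only. The allograft, native and spleen libraries held 3864, 4115 and 4570 cells after filtering, with median depths of 4965, 6526 and 4428.5 UMIs per cell. Of the cell barcodes, 4 to 7 were shared by each pair of libraries and 0 by all 3. Most tracheal cells carried leukocyte markers and not those of mesenchyme: in the allograft 2237 cells passed the phagocyte gate and 38 the fibroblast gate, and in the native library 1767 and 934 did. A gate here means 3 or more of 8 marker genes of a lineage detected in a cell, and at least 2 more than of any other lineage; 406, 468 and 400 cells of the allograft, native and spleen libraries passed none.

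Many promoters of the set carry elements through which these waves are known to be switched on, and 6 of them are shown because they display the contrast between the replication and the mitotic genes. RefSeq promoter windows (GRCm38.p6, 250 bases before to 50 after the start) were matched for 28 of the 34 genes. The cell cycle homology region, CHR, searched as TTTGAA on both strands, was in 13 of 17 mitotic windows, 1 of 10 replication windows and 18.1% of the windows of 27025 genes. The E2F core, searched on both strands with TTCCCGC, plus its variants TTGGCGC, plus TTCGCGC, plus TTGCCGC, was in 6 of 10 replication windows, 3 of 17 mitotic windows and 9.69% of all. The CCAAT box, searched as CCAAT on both strands, was in 16 of 17 mitotic windows, 8 of 10 replication windows and 37.9% of all, and both CHR and CCAAT were in 13 of 17 mitotic windows against 7.12% of all. The windows of Tyms, Tk1 and Birc5 held none of these letters. On the opposite strand a CCAAT box can share letters with an E2F core, and such a match counted for both. The motifs and the genes shown were chosen after the data were seen, and a match is a description of the sequence and not a bound site. The sequences run 5′ to 3′ from 150 bases before to 30 after the start, with CHR, CCAAT and E2F matches of either strand in capitals:
Top2a (chr11:99024160-99024339, minus strand): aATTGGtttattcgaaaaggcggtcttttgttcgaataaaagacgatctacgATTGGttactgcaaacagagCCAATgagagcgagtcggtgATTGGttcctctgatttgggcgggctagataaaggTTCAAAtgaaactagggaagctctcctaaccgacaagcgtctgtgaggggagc
Ccnb2 (chr9:70421525-70421704, minus strand): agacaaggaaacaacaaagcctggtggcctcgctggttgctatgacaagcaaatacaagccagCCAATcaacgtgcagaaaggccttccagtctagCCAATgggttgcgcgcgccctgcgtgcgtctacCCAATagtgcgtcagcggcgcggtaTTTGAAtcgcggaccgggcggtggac
Cdc20 (chr4:118437314-118437493, minus strand): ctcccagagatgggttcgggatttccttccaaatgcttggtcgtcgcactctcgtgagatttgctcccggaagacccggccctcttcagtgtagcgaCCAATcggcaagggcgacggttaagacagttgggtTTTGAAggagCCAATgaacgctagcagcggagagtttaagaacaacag
Kif23 (chr9:61946770-61946949, minus strand): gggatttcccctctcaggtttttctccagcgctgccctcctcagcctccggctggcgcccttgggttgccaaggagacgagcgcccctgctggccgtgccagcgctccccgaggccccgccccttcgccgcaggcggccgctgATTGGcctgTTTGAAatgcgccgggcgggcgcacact
Mcm3 (chr1:20820283-20820462, minus strand): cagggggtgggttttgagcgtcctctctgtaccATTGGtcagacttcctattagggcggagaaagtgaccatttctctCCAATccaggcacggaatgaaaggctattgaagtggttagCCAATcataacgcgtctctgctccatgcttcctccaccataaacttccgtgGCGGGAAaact
Mcm5 (chr8:75109359-75109538, plus strand): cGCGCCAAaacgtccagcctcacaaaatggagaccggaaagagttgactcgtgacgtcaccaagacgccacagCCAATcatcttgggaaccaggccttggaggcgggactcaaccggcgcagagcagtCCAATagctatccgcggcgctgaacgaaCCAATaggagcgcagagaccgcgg

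Top2a, Ccnb2 (cyclin B2, which activates the mitotic kinase) and Cdc20 (an activator of the anaphase-promoting complex) each show 1 CHR in this window with 2 to 4 CCAAT boxes. Kif23, a motor of the midzone of the dividing cell, shows 1 CHR and 1 CCAAT box. Mcm3 and Mcm5, subunits of the replication helicase, show 3 CCAAT boxes and 1 E2F core each, and no CHR.

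The spleen library held the largest share of cycling cells, and the tracheal libraries were close to each other. In the allograft 115 cells were cycling, 2.98% (95% exact binomial interval 2.46 to 3.56). In the native library 155 were, 3.77% (3.21 to 4.39). In the spleen 305 were, 6.67% (5.97 to 7.44). Cycling cells were deeper, at medians of 11293, 11384 and 17225 UMIs in the allograft, native and spleen libraries, so each cell was also thinned to 1500 UMIs, leaving out 350, 186 and 141 shallower cells. The shares were then 0.939% (0.647 to 1.32) in the allograft, 1.15% (0.837 to 1.53) in the native library and 3.70% (3.17 to 4.30) in the spleen. The tracheal intervals overlapped under both counts and neither overlapped that of the spleen. The rule is a range with no sharp edge: 219, 164 and 230 cells of the allograft, native and spleen libraries held 1 UMI of Mki67 or Top2a, just outside it, and 35, 49 and 45 held 2, just inside it.

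Cells called by these genes also held more of the other 32 than cells without them. After thinning, cycling cells held UMIs of a median of 6 of the 32 other genes in the allograft, 6 in the native library and 9 in the spleen. Cells without a Mki67 or Top2a UMI held 1, 0 and 1.

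Cycling shares differed widely between lineages. In the allograft 68 of 2237 phagocyte-gated cells were cycling, 3.04% (2.37 to 3.84), and in the native library 63 of 1767 were, 3.57% (2.75 to 4.54). Thinned, these shares were 0.745% and 0.871%. Phagocyte-gated cells of the spleen stood at 1.07% (4 of 373 cells, 0.293 to 2.72), at a median of 3587 UMIs against 6924 and 6401 in the allograft and native libraries, and thinned at 0.888%. The thinned intervals of all 3 libraries overlapped, so no order of the phagocytes can be read. Phagocytes made up 59.1% (49.6 to 68.2) of the cycling cells of the allograft, 40.6% (32.8 to 48.8) of those of the native library and 1.31% of those of the spleen. They were 2237 of all 3864 cells of the allograft, 1767 of 4115 of the native library and 373 of 4570 of the spleen. In the tracheal libraries their share of cycling cells was thus near their share of all cells.

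Neutrophil-gated cells, which should not divide, give the background of the rule. Of them 6 of 575 in the allograft (1.04%), 6 of 598 in the native library (1.0%) and 1 of 238 in the spleen (0.420%) were called cycling, at median depths of 1702, 1969.5 and 2390.5 UMIs. Thinned, the neutrophil shares were 1.02% (0.279 to 2.59), 0.594% (0.123 to 1.73) and 0.476% (0.0121 to 2.62). The thinned shares of the phagocyte gate lie within these intervals, which rest on 4, 3 and 1 called cells. By the share alone, phagocytes could thus not be told apart from this background at matched depth. At that matched depth the 16 phagocytes called cycling in the allograft held a median of 7 of the 32 other genes (1 to 11), and the 15 in the native library held 5 (0 to 12). The 4 neutrophils called in the allograft held 0 to 2 of them, the 3 in the native library 1 each, and the 1 in the spleen 5.

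T cell-gated cells showed the widest gap between the tracheal libraries. In the allograft 13 of 349 were cycling, 3.72% (2.0 to 6.29). In the native library 35 of 186 were, 18.8% (13.5 to 25.2), and in the spleen 21 of 1088, 1.93% (1.20 to 2.93). The median depths were alike, 3875, 3879 and 4286 UMIs, and the thinned shares kept the order at 1.80%, 11% and 0.929%. Part of the native T gate held thymocyte markers: 59 native cells held 2 or more of Rag1, Rag2, Dntt, Ptcra, Arpp21 and Ccr9, against 0 in the allograft and 2 in the spleen. Of those 59 cells 18 were cycling, 30.5% (19.2 to 43.9), and without them 17 of 127 native T cells were, 13.4% (7.99 to 20.6). Leaving out also every T cell with any UMI of these markers or with both Cd4 and Cd8 UMIs, a choice made after the data were seen, left 7 of 72 native cells, 9.72% (4.0 to 19), against 12 of 341 allograft cells, 3.52% (1.83 to 6.07). Those intervals overlap.

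Among T cells with UMIs of Cd8a or Cd8b1 and not Cd4, 5 of 136 allograft cells (3.68%), 9 of 55 native cells (16.4%) and 0 of 373 spleen cells were cycling. The native cells include some with thymocyte markers. They held 344 Stmn1 UMIs, against 87 in all native T cells without such markers or both Cd4 and Cd8 UMIs. Taking 3 counts as the limit of a count of 0, the spleen count allows a share of up to 0.804%; the exact interval reaches 0.984%. Among those with Cd4 alone, 6 of 74 allograft cells (8.11%, 3.03 to 16.8) and 17 of 357 spleen cells (4.76%, 2.80 to 7.51) were. Of natural killer-gated cells 5 of 157 were cycling in the allograft (3.18%, 1.04 to 7.28) and 1 of 71 in the spleen (1.41%, 0.0357 to 7.60). Those intervals overlap as well.

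In the spleen, cycling cells were mostly B cells and erythroid cells. B cell-gated cells made up 50.8% of them and erythroid-gated cells 22.3%. Of all 4570 spleen cells 2224 were B cell-gated, a share near that of the cycling cells, and 70 were erythroid-gated. Of 70 erythroid-gated cells 68 were cycling, 97.1% (90.1 to 99.7), and 62.9% (50.5 to 74.1) after thinning. Their median depth was 33530.5 UMIs. Of 2224 B cell-gated cells 155 were cycling, 6.97% (5.95 to 8.11), and 3.98% (3.20 to 4.88) after thinning. Plasma cell-gated cells stood at 23.5% (16 of 68), but at a median of 21400.5 UMIs, and thinned at 1.47% (0.0372 to 7.92). Fibroblast-gated cells of the native library held 0 cycling cells of 934 at a median of 10829.5 UMIs, which by the same limit of 3 counts allows a share of up to 0.321%; the exact interval reaches 0.394%.

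**Figure D1:**
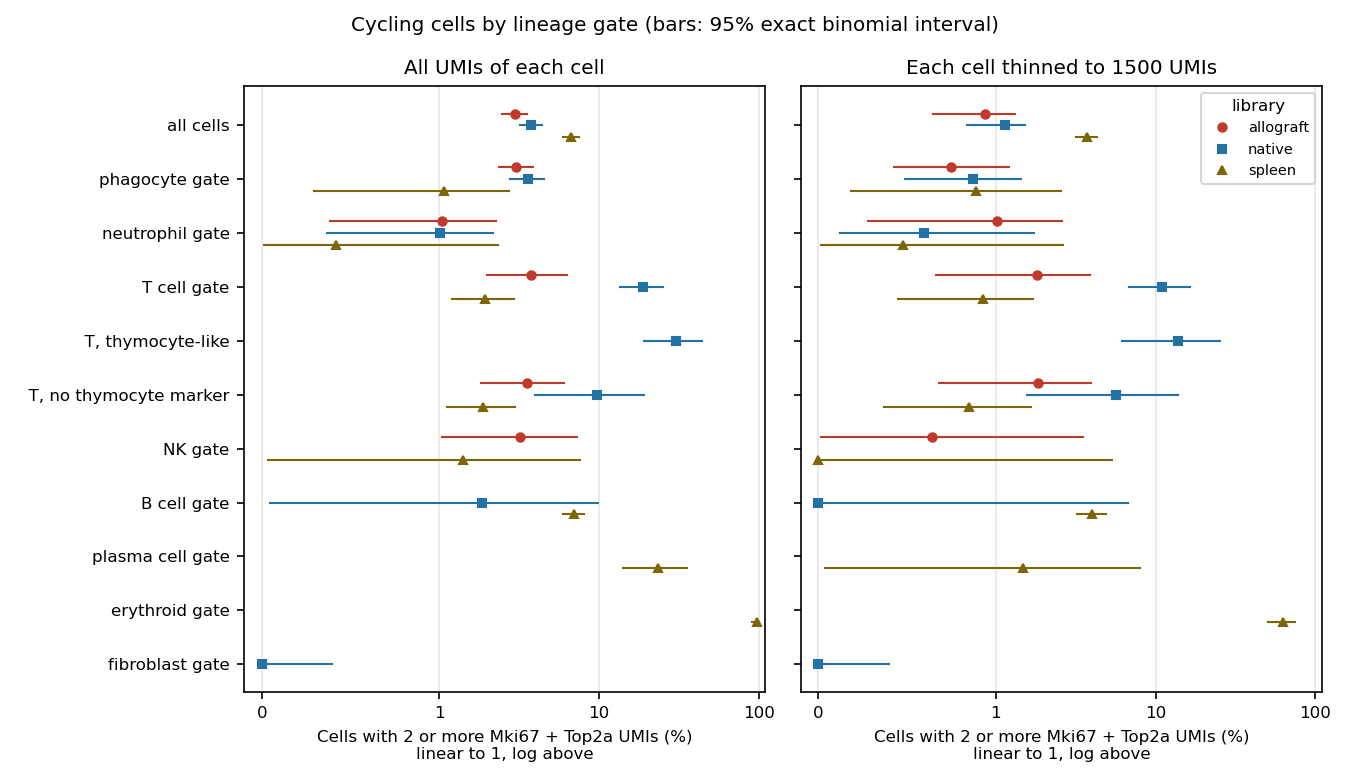
Share of cells with 2 or more Mki67 and Top2a UMIs together (x axis, percent, linear to 1 and logarithmic above) by lineage gate (y axis) in the allograft (circles), native (squares) and spleen (triangles) libraries, with all UMIs on the left and each cell thinned to 1500 UMIs on the right. Bars are 95% exact binomial intervals and gates under 50 cells in a library are left out. The erythroid cells of the spleen and the T cells of the native library stand to the right in both panels, and the plasma cell gate falls from 23.5% to 1.47% on thinning.

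Levels are given as CPM, the UMIs of a gene per 1000000 UMIs. Over all cells Mki67 (chr7:135689784-135716361, GRCm38) stood at 25.5 CPM in the allograft, 29.3 in the native library and 179 in the spleen. Top2a (chr11:98992943-99024189) stood at 22.8, 20.9 and 120 CPM. Cdk1, the kinase that drives mitosis, stood at 8.20, 5.21 and 44.5 CPM, and Ccnb1, its cyclin B1 partner, at 2.43, 2.77 and 31.6 CPM. Each of these was highest in the spleen. The replication gene Mcm5 stood at 16.0, 11.7 and 60.8 CPM in the same order. Pcna, the sliding clamp of DNA polymerase, differed from this pattern, at 36.6 CPM in the allograft, 22.3 in the native library and 33.8 in the spleen. The other replication genes ranged from 6.90 to 31.5 CPM in the allograft, 4.22 to 23.0 in the native library and 33.5 to 129 in the spleen. The other mitotic genes ranged from 0.941 to 64.6, 0.429 to 44.3 and 8.75 to 103 CPM, with Kif20a lowest and Cenpa highest in each library. Hmgb2, a chromatin protein, stood at 321, 260 and 825 CPM, and Stmn1, which destabilises microtubules, at 61.2, 89.8 and 218 CPM.

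**Figure D2:**
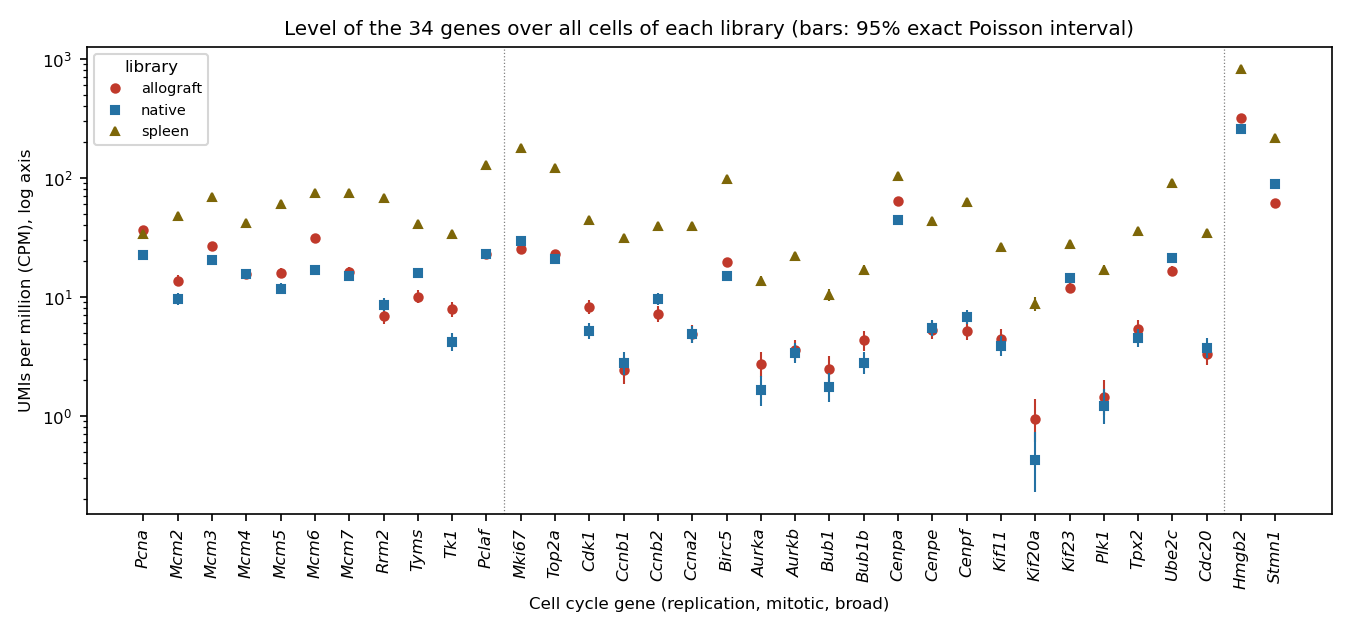
Level of each of the 34 genes (x axis, replication, mitotic and broad genes separated by dotted lines) over all cells of the allograft (circles), native (squares) and spleen (triangles) libraries, in CPM on a log axis. Bars are 95% exact Poisson intervals. The spleen points lie above both tracheal points for all genes but Pcna, where the allograft point at 36.6 CPM is the highest.

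Against the spleen the set was lower in both tracheal libraries over all cells. Of the 34 genes 32 were 2-fold or more lower in the allograft than in the spleen and 0 higher, with a median log2 ratio of -2.36, where 26.4% of all genes were 2-fold or more lower, 25.0% higher, and the median of all genes was -0.19. The exceptions were Pcna and Cenpa, the centromeric histone, at 64.6 against 103 CPM. Ccnb1 was 12.9-fold (10.0 to 17.1) lower in the allograft. In the native library 32 of 34 were lower than in the spleen and 0 higher, with a median of -2.57, where 27.0% of all genes were lower and 30.7% higher. Kif20a, a motor of cytokinesis, was 19.7-fold (11.7 to 38.9) lower there. The exceptions were Pcna and Kif23. Both comparisons share the spleen library, whose erythroid-gated cells, 70 of its 4570 cells, held 34.8% of its UMIs of the 19 mitotic genes other than Mki67 and Top2a.

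Between the tracheal libraries the set differed little over all cells. In all 34 were tested; 22 stood higher in the allograft, and their median log2 ratio was 0.16 against 0.01 over all genes. Only Kif20a was 2-fold or more apart, at 0.941 CPM in the allograft and 0.429 in the native library (24 and 13 UMIs), 2.16-fold (1.07 to 4.70) higher. Of all genes tested 7.06% were 2-fold or more higher and 19.5% lower, so the count of the set does not exceed that background in either direction. Nearest to the threshold were Tk1, thymidine kinase, at 7.88 against 4.22 CPM, 1.87-fold (1.49 to 2.35) higher, and Mcm6, at 31.5 against 16.9 CPM, 1.86-fold (1.66 to 2.09) higher. Tyms, thymidylate synthase, stood the other way at 10.0 against 15.8 CPM, 1.57-fold (1.35 to 1.84) lower, and Stmn1 was 1.47-fold (1.38 to 1.56) lower. The replication genes had a median of 0.39 and the mitotic genes one of 0.13. Among cells without a Mki67 or Top2a UMI, 31 of the other genes were tested; 10 passed 2-fold towards the allograft and 1 towards the native library, where 8.16% of all genes were higher and 19.7% lower. Their median was 0.51 against 0.01 over all genes. Without the thymocyte-like cells the median over all cells was 0.54. The libraries differ in their mix of cells, with 38 fibroblast-gated cells in the allograft and 934 in the native library. What part of these medians comes from that mix was not tested.

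Few other cell cycle genes were 2-fold or more apart over all cells, where 7.06% of all genes were higher and 19.5% lower. Of 20 further replication genes 1 was 2-fold or more higher, Cdt1, which loads the helicase, at 41.7 against 18.7 CPM. Of 35 further mitotic genes 1 was, Espl1, separase, at 16.3 against 4.61 CPM, 3.53-fold (2.91 to 4.31). Of 19 G1 cyclins, kinases, E2F genes and related factors 3 were 2-fold or more lower and 0 higher, led by Mycn at 0.118 against 1.29 CPM and Myc at 12.4 against 56.1 CPM, 4.52-fold (4.02 to 5.12). Of 10 inhibitors of the cycle 2 were lower, Btg2 at 187 against 515 CPM and Cdkn2d at 16.7 against 35.6 CPM. The counts of both of these lists lie near the share of all genes that were lower.

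In phagocyte-gated cells the set again lay close to equality. The ratio was above 1 for 25 of the 34, and its log2 median was 0.21 against 0.06 over all genes. Kif20a was 2-fold or more higher, but on 15 and 4 UMIs, with an interval from 0.819 to 10.6 that includes no difference, and 0 genes were 2-fold or more lower. Of all genes 6.76% were higher and 10.8% lower by that much. Kif23 came nearest to the lower threshold, at 7.96 against 15.5 CPM, 1.94-fold (1.56 to 2.44) lower, followed by Ube2c, the ubiquitin-conjugating enzyme of the anaphase-promoting complex, at 14.1 against 24.6 CPM, 1.74-fold (1.47 to 2.07) lower. On the other side stood Bub1, a spindle checkpoint kinase, at 2.77 against 1.40 CPM, 1.94-fold (1.12 to 3.66) higher, and Rrm2, a subunit of ribonucleotide reductase, at 7.28 against 3.95 CPM, 1.83-fold (1.31 to 2.62) higher. Mki67 stood at 21.7 against 28.4 CPM, Top2a at 16.8 against 16.5 and Pcna at 39.1 against 29.1. In phagocytes of monocyte type some genes differed more. Those 2-fold or more lower in the allograft included Ube2c, 3.21-fold (2.11 to 4.85), and Tyms, 2.92-fold (1.67 to 5.02). Stmn1 was 2.70-fold (2.03 to 3.57) lower and Top2a 2.50-fold (1.57 to 3.89). Only Bub1 and Cdc20 were 2-fold or more higher, on 1 native UMI each. The native side rests on 101 cells, and 1 cell held 31 of its 46 Ube2c UMIs.

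The balance of replication and mitotic messages within cycling phagocytes differed between the tracheal libraries. In the 68 cycling phagocytes of the allograft the 11 replication genes gave 1090 UMIs and the 19 mitotic genes other than Mki67 and Top2a gave 1395, a ratio of 0.781 (0.721 to 0.846). In the 63 of the native library they gave 534 and 1124 UMIs, a ratio of 0.475 (0.428 to 0.527). The intervals do not overlap, but they treat UMIs as independent, whereas the UMIs of a gene set come from these few cells at different points of the cycle. Of the phagocytes, 50 in the allograft and 28 in the native library held 4 or more of the 19 mitotic genes. By that rule the log2 ratio of the cycling shares was 0.49, and by Mki67 and Top2a it was -0.23, so its direction depends on the rule.

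Among phagocytes the genes of other lists also had few large differences. Of 20 further replication genes 17 were higher in the allograft, 0 by 2-fold or more, with a median log2 ratio of 0.42. Of 35 further mitotic genes 3 were 2-fold or more higher, with Espl1 at 20.5 against 8.32 CPM, and 1 lower, Ckap2l, a spindle protein, at 5.59 against 13.3 CPM. The shares of all genes in this gate were 6.76% higher and 10.8% lower. Cdk6 and Ccnd2, a kinase and a cyclin of G1, were 2.22-fold (2.05 to 2.40) and 2.15-fold (1.93 to 2.41) lower, and Mybl2, which encodes B-Myb, was 3.34-fold (1.55 to 9.39) higher on 36 and 7 UMIs.

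T cell-gated cells of the allograft held less of nearly the whole set than those of the native library. Of 33 genes with 10 or more UMIs over both libraries 27 were 2-fold or more lower in the allograft and 0 higher, with a median log2 ratio of -1.96 against -0.02 over all genes, where 13.7% of all genes were lower and 11.1% higher by that much. The replication genes had a median of -1.39, with 8 of 11 lower, and the mitotic genes one of -2.09, with 18 of 20 lower.

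Of the replication genes, Rrm2 stood at 12.5 CPM in allograft T cells and 135 in native T cells, 10.6-fold (6.73 to 18.5) lower. Pclaf, a partner of Pcna at the replication fork, stood at 57.1 against 310 CPM, 5.40-fold (4.28 to 6.93) lower. Mcm5 stood at 32.8 against 97.4 CPM and Mcm7 at 26.3 against 129. Pcna stood at 36.1 against 67.7 CPM, 1.87-fold (1.32 to 2.69) lower and short of the threshold. The log2 ratios of Tyms, Mcm3, Mcm4 and Tk1 ran from -2.10 to -1.07, and Mcm2 stood at -0.96. Mcm6 was the only gene on the other side, at 110 against 99.1 CPM with an interval of 0.876 to 1.42.

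Of the mitotic genes, Mki67 stood at 49.2 against 244 CPM, 4.94-fold (3.84 to 6.48) lower, and Top2a at 91.2 against 249 CPM, 2.73-fold (2.23 to 3.37) lower. Cdk1 stood at 13.8 against 45.4 CPM and Ccnb1 at 6.56 against 32.2. Aurkb, a kinase of the chromosomal passenger complex, stood at 3.94 against 29.7 CPM, 7.06-fold (3.15 to 21.9) lower, and Ccna2, cyclin A2, at 11.8 against 64.4 CPM, 5.34-fold (3.23 to 9.67) lower. Cdc20 stood at 7.88 against 42.1 CPM, 5.18-fold (2.81 to 11) lower. Bub1 rested on 2 and 18 UMIs, with a ratio of 9.31 (2.71 to 101), and the mitotic kinase Plk1 on 1 and 12, with a ratio of 10.5 (2.23 to 645). Another 9 mitotic genes (Ccnb2, Birc5, Aurka, Bub1b, Cenpe, Cenpf, Kif11, Tpx2 and Ube2c) were also 2-fold or more lower, with log2 ratios from -2.34 to -1.27. Kif23 stood at 29.5 against 45.4 CPM, short of the threshold, and Kif20a had too few UMIs. Cenpa was nearly level, at 163 against 173 CPM. Of the broad genes Stmn1 stood at 97.8 against 977 CPM, 9.96-fold (8.41 to 11.9) lower, and Hmgb2 at 979 against 1814 CPM, 1.85-fold (1.73 to 1.98) lower.

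This difference moved with the thymocyte-like cells of the native library. In those 59 cells Mki67 stood at 449 CPM, Ccnb1 at 89.4, Cdc20 at 118 and Stmn1 at 1693. Without them 11 of 31 genes were 2-fold or more lower in allograft T cells and 2 higher, with a median of -0.72, where 10.1% of all genes were lower and 10.5% higher. The 2 higher genes were Ccnb1 and Cdc20, on 10 and 2 and on 12 and 2 UMIs. Without every T cell with a thymocyte marker or with both Cd4 and Cd8 UMIs, 5 of 27 genes were lower and 1 higher, with a median of -0.16, where 7.17% of all genes were lower and 13.2% higher and the median of all genes was 0.18. The 5 were Rrm2 at 8.97 against 39.2 CPM, Ccna2 at 7.59 against 20.8, Mki67 at 35.2 against 94.6, Stmn1 at 75.2 against 201 and Pclaf at 39.4 against 87.6. Mcm6 was higher in the allograft, at 108 against 36.9 CPM, 2.84-fold (1.74 to 5.23). Those native values rest on 72 cells.

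**Figure D3:**
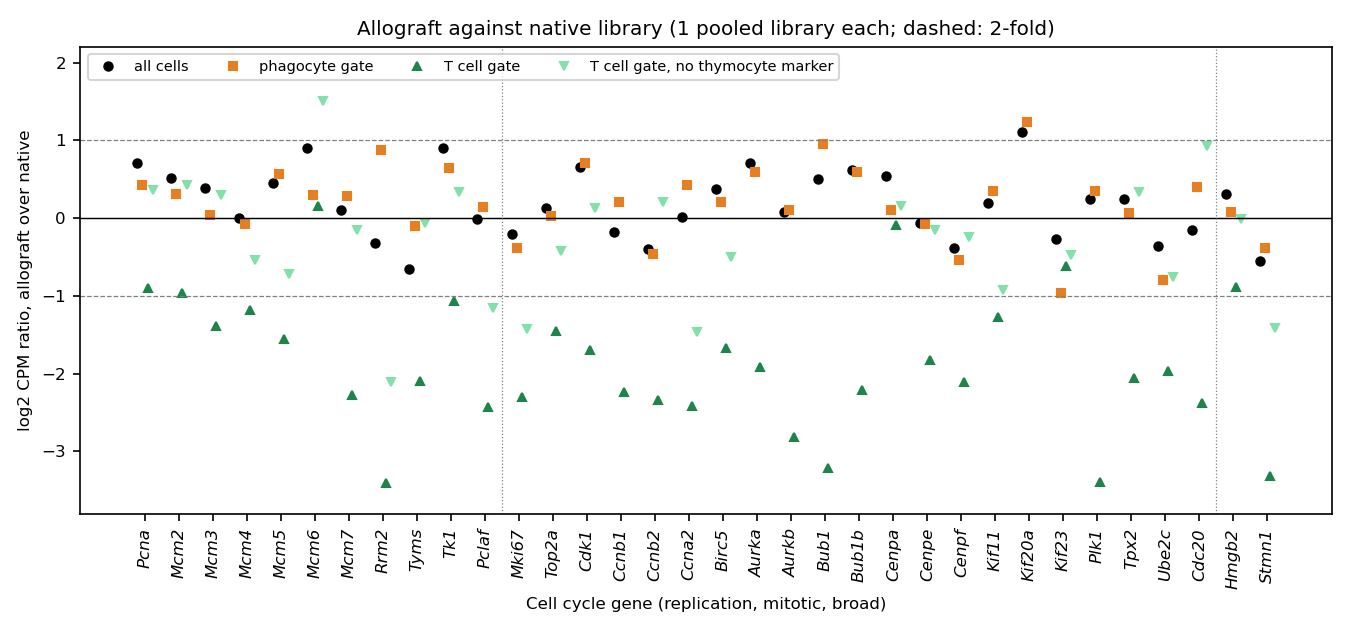
Log2 ratio of CPM, allograft over native (y axis), of each gene (x axis) over all cells (circles), phagocyte-gated cells (squares), T cell-gated cells (upward triangles) and T cell-gated cells without thymocyte markers (downward triangles). Dashed lines mark 2-fold and genes under 10 UMIs are left out. The T cell points lie around -1.96, and most move towards 0 without the cells with thymocyte markers, where the median is -0.16.

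Further cell cycle genes moved in the same way in the whole T gate. Of 20 further replication genes 15 were 2-fold or more lower in the allograft and of 35 further mitotic genes 29 were, with 0 higher in either list. In this gate 13.7% of all genes were lower and 11.1% higher by that much. Of 18 G1 genes tested 11 were lower, led by Ccnd1 at 5.91 against 51.2 CPM. Ccnd2, which encodes cyclin D2, was the 1 higher, at 236 against 88.3 CPM, 2.66-fold (2.14 to 3.34). Of 8 inhibitors tested 2 were lower, with Cdkn2c at 8.53 against 42.9 CPM. Without the cells with thymocyte markers or with both Cd4 and Cd8 UMIs the counts lower were 2 of 18, 8 of 20, 5 of 15 and 2 of 8, with 1, 2, 0 and 0 higher. The shares of all genes were then 7.17% lower and 13.2% higher.

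Against the spleen, the whole T cell gate of the native library held more of nearly the whole set. That of the allograft had a count of higher genes near the share of all genes. In the allograft 7 of 34 genes were 2-fold or more higher than in spleen T cells and 2 lower, the median log2 ratio being 0.44 against 0.07 over all genes, where 16.2% of all genes were higher and 13.7% lower. Cenpa led at 163 against 61.8 CPM, 2.64-fold (2.22 to 3.12), followed by Top2a at 91.2 against 35.2 CPM, Mcm6 at 110 against 50.6, Kif23 at 29.5 against 13.6, Kif11, a spindle motor, at 19.7 against 9.20, Hmgb2 at 979 against 463, and Pcna at 36.1 against 18.0. In the allograft 1 T cell held 47 of the 139 Top2a UMIs, and 1 held 10 of the 30 of Kif11. The 2-fold calls of Top2a and Kif11 thus lean on single cells. The 2 lower genes, Plk1 and Kif20a, had 1 UMI each in the allograft, and their intervals include no difference. In the native library 32 of 34 genes were higher than in spleen T cells and 0 lower, with a median of 2.03 against 0.12 over all genes, where 18.7% of all genes were higher and 15.2% lower. Rrm2 led at 135 against 9.60 CPM, 14.0-fold (10.2 to 19.9), with Stmn1 at 977 against 70.0 CPM, 13.9-fold (12.4 to 15.8). These native values include the thymocyte-like cells. Without every T cell with a thymocyte marker or with both Cd4 and Cd8 UMIs, native Rrm2 stood at 39.2 CPM and Stmn1 at 201. These comparisons share the spleen library.

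Natural killer-gated cells gave 16 genes with enough UMIs, with a median log2 ratio, allograft over spleen, of 1.17 against -0.13 over all genes tested. Mcm6 stood at 174 against 35.8 CPM, 4.63-fold (2.49 to 10.9), and Cenpa at 223 against 55.7 CPM, 3.88-fold (2.32 to 7.50). Pclaf stood at 65.4 against 15.9 CPM, and Top2a at 51.8 against 15.9 CPM. Mki67 stood at 50.4 against 19.9 CPM, with an interval of 0.993 to 8.26. In the allograft 1 cell held 28 of the 48 Pclaf UMIs, and 1 held 19 of the 38 of Top2a. For Mki67, 1 cell held 14 of the 37 UMIs there, and 1 cell held all 5 in the spleen. The intervals do not allow for such cells. The spleen side rests on 71 cells and on 4 to 14 UMIs for each of these genes. Mcm4, Tyms, Birc5 and Kif23 had log2 ratios from 1.12 to 1.91 on 1 to 4 spleen UMIs. The other 7 genes were under 2-fold apart: Mcm7 was the lowest, 1.36-fold lower, Pcna, Mcm2, Mcm3, Mcm5 and Stmn1 were 1.06-fold to 1.29-fold higher, and Hmgb2 was 1.67-fold higher. The share of all genes past 2-fold in this gate is not reported here, so no result is read from the number of genes past it.

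Within the spleen, erythroid-gated cells stood above B cell-gated cells in the genes named here. Mki67 stood at 812 CPM in erythroid-gated cells and 161 in B cell-gated cells. Pclaf was the nearest, at 262 against 182 CPM. Rrm2 stood at 442 against 42.5 CPM, and Mcm7 at 383 against 58.3. Ccnb1 stood at 162 against 26.0 CPM, and Stmn1 at 825 against 216. In cycling cells the ratio of replication to mitotic UMIs was 0.849 (0.821 to 0.878) in the erythroid gate and 0.835 (0.808 to 0.862) in the B cell gate. It was 0.424 (0.376 to 0.478) in spleen T cells, 1.0 (0.853 to 1.18) in allograft T cells and 1.22 (1.13 to 1.32) in native T cells, with 1.0 (0.907 to 1.11) in the native thymocyte-like cells. These intervals also treat UMIs as independent, whereas they come from few cells. In allograft T cells 1 cell held 30 of the 87 Pclaf UMIs. The intervals are thus too narrow to order the T cells of the libraries.

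How far each gene was limited to cycling cells differed by role. Cycling cells held 5.77%, 6.52% and 24.1% of all UMIs of the allograft, native and spleen libraries. Of the UMIs of the 19 mitotic genes not used by the rule they held a median of 70.7%, 81.4% and 96.1%. Of the UMIs of the replication genes they held 37.7%, 44.2% and 77.9%. Ccna2 was the most limited, at 92.0%, 93.9% and 98.2%. Pcna was among the least, at 13.6%, 18.7% and 65.9%, with Cenpa at 13.3%, 26.6% and 73.5%, Kif23 at 35.0%, 33.4% and 66.4%, and Hmgb2 at 21%, 35.4% and 72.0%. In each library every one of the 32 genes held a larger share there than all genes together.

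**Figure D4:**
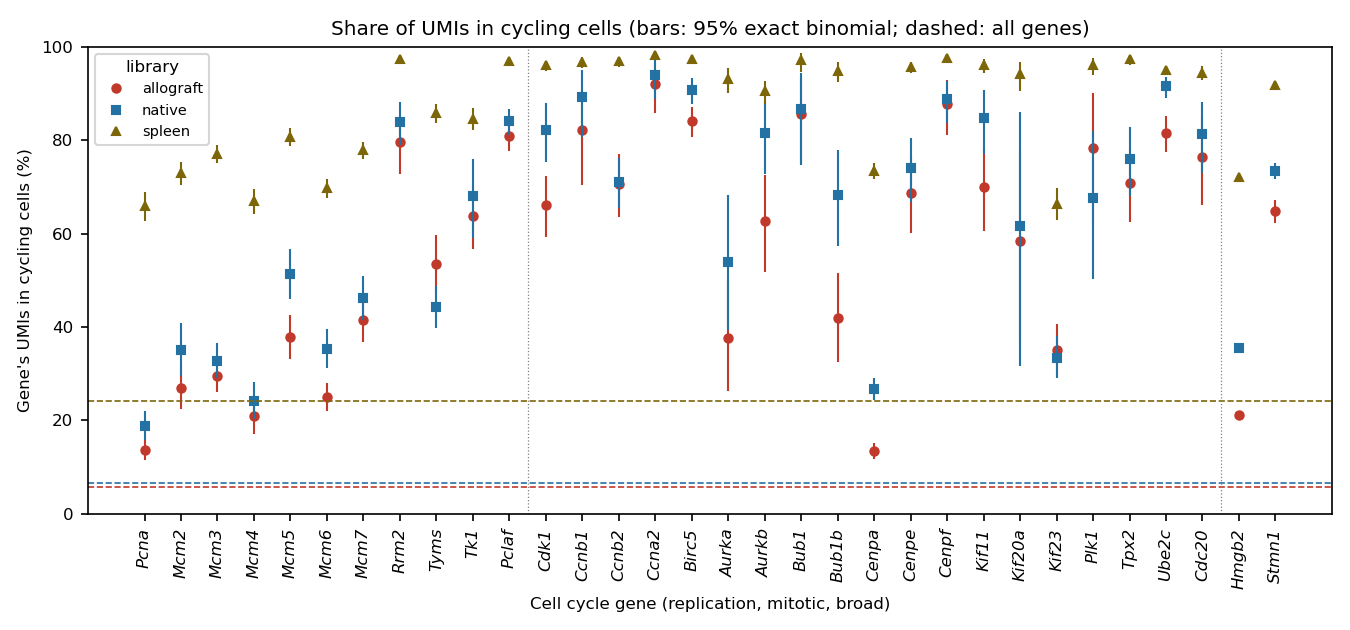
Share of each gene's UMIs that lay in cycling cells (y axis, percent) for the 32 genes not used to call them (x axis, replication, mitotic and broad genes separated by dotted lines) in the allograft (circles), native (squares) and spleen (triangles) libraries. Bars are 95% exact binomial intervals and dashed lines give the share of all UMIs in cycling cells, 5.77%, 6.52% and 24.1%. Cenpa, Kif23 and Aurka are the lowest of the mitotic genes in both tracheal libraries.

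Cenpa, Kif23 and Hmgb2 were also present where few cells were called cycling. In neutrophil-gated cells Kif23 stood at 56.2 CPM in the allograft, 67.4 in the native library and 104 in the spleen, against 7.96, 15.5 and 22.1 CPM in phagocyte-gated cells. Cenpa stood at 49.5, 73.6 and 34.7 CPM in neutrophils and Hmgb2 at 788, 747 and 1338. Top2a in the same cells stood at 0, 3.44 and 2.48 CPM, Ccna2 at 0, 0.688 and 4.96, and Cdk1 at 0.953, 0 and 3.72. Of the set 7 genes had 10 or more UMIs in neutrophils of both tracheal libraries together, and 1, Mki67, passed 2-fold, at 43.8 against 13.1 CPM, with 0 lower, where 5.84% of all genes were higher and 6.98% lower. Of its 46 allograft UMIs 12 were in 1 cell, and Top2a had 0.

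In cells without a Mki67 or Top2a UMI, Cenpa stood at 148 CPM in T cells and 214 in natural killer cells of the allograft, against 42.7 and 55.9 in the spleen. Native T cells of this kind also held much Cenpa, at 124 CPM, so its level in T cells was not particular to the allograft. Mcm6 stood there at 91.8 and 144 CPM in the allograft against 43.6 and 38.7 in the spleen, and at 29.2 in native T cells. Stmn1 stood at 143 CPM in such T cells of the native library, which include the thymocyte-like cells, against 14.1 in the allograft and 22.6 in the spleen. Hmgb2 stood at 719, 580 and 300 CPM in such T cells of the allograft, native and spleen libraries. The higher Cenpa and Mcm6 of allograft T and natural killer cells relative to the spleen were thus also measured outside the cells called cycling.

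**Figure D5:**
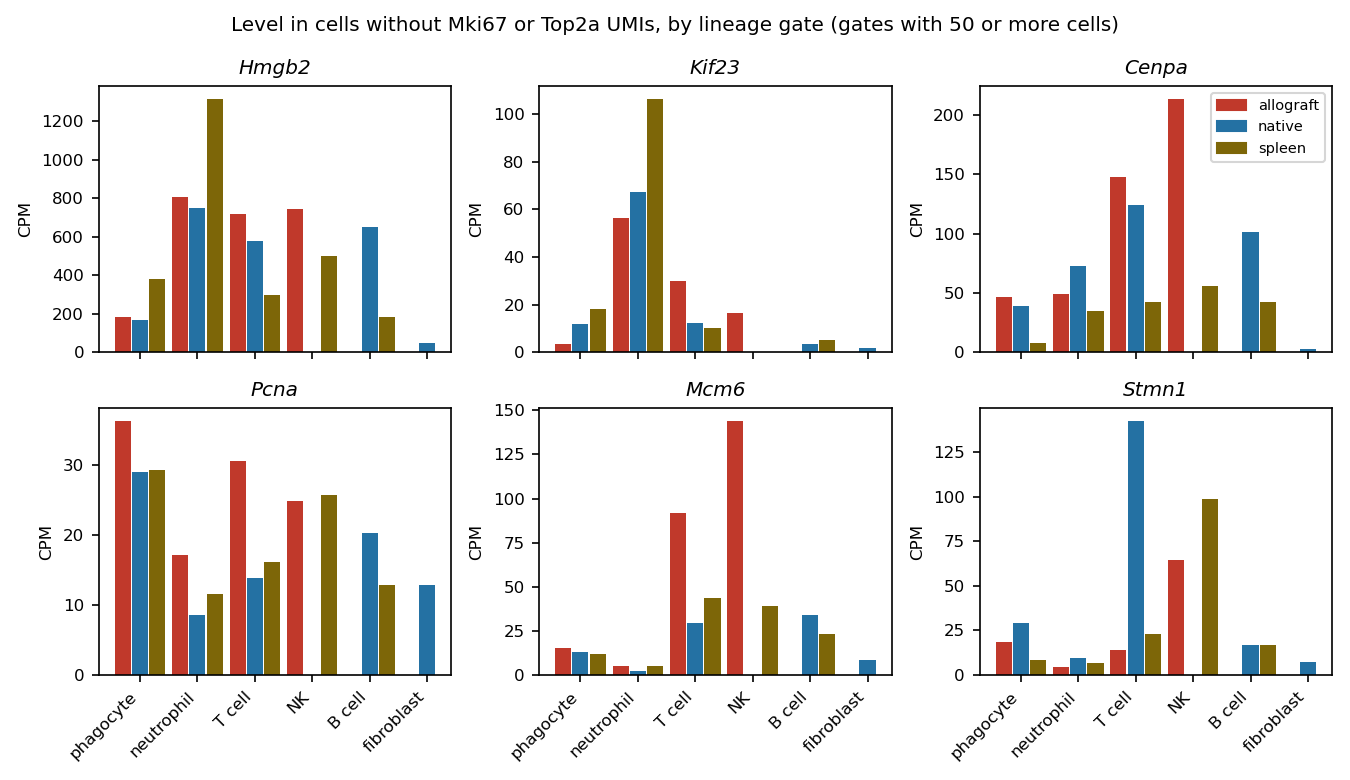
Level in CPM (y axis, starting at 0) of Hmgb2, Kif23, Cenpa, Pcna, Mcm6 and Stmn1 in cells without a Mki67 or Top2a UMI, by lineage gate (x axis) and library (bar colour). A bar is missing where the library had under 50 cells in the gate. Kif23 is highest in the neutrophil gate of each library, and Cenpa and Mcm6 are highest in natural killer and T cells of the allograft.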

How the data were processed

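Single-cell RNA of 12 mouse samples was measured with 10x Chromium 3′ version 3 chemistry, per the labels' protocols. The authors deposited 1 matrix of UMI counts per source, with tables of genes and barcodes; the headers name Cell Ranger 3.1.0, and the submitters' processing notes name mm10. Columns of other samples numbered 0. Cells with 500 or more genes and at most 20% mitochondrial UMIs were kept, and doublets called by scrublet (through scanpy 1.11.5) were taken out. Calls covered 0.672%, 0.930% and 0.185% of allograft, native and spleen barcodes, under the expected 3.69% to 3.88%, so most doublets remain.

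Lineage gates used 8 markers each; 1 subset of B cells is not reported here. Counts were summed per gate and library and scaled to 1000000. Ratios were made with 0.5 UMI added to each sum, for genes with 10 or more UMIs over both libraries, with exact conditional binomial intervals at 95%. Levels have exact Poisson intervals and shares exact Clopper-Pearson intervals. A gene is called past 2-fold. On simulated data with 200 changed genes, for the allograft against the native library over all cells, 96% of the intervals held the true ratio. The simulated counts were Poisson draws, as the intervals assume, so this checks the calculation only. It does not cover UMIs gathered in a few cells, for which the intervals are too narrow. Total UMIs were 26503045, 31415458 and 28318436.

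The members and lists were chosen with earlier results of these data known. Named genes were those 2-fold or more apart, up to 8 in each direction (fewer are printed against the spleen), 8 fixed genes in any case, and the 2 most extreme of each further list; genes nearest to a threshold were named after their values were seen. Cells were filtered, gated and scaled in other ways as alternatives. numpy 2.4.6, pandas 2.3.3, scipy 1.17.1 and matplotlib 3.10.9 were run under Python 3.11.15.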

Additional observations from a re-analysis of the deposited data

Results flagged for a closer look

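The median log2 ratio of the genes, allograft over native, was -1.96 in T cell-gated cells and 0.21 in phagocyte-gated cells, so its sign differed between them. The phagocyte value lay near the median of all genes there, 0.06, and the log2 ratio of the cycling shares of phagocytes was -0.23, of the same sign as in T cells. That phagocyte median covers the whole gate, and in phagocytes of monocyte type some genes were 2-fold or more lower in the allograft. The difference between these medians was not tested, since each source is 1 pooled library. The T cell value was -0.72 without the thymocyte-like cells and -0.16 without every T cell with a thymocyte marker or with both Cd4 and Cd8 UMIs.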

How the results depend on the processing

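Leaving out replicates was not possible, because the 4 samples of a source share 1 matrix. No paired analysis was possible because the samples of a source are pooled and carry no replicate number in the matrices. Under the other settings 196 values of the main results stayed within their interval, or for counts near the main count, and 56 moved; of single genes 1203 stayed, 127 moved and 8 reversed. Removing the expected share of doublets, keeping called doublets, dropping the cell filter or requiring 4 markers per gate gave none of the moved main results. Median-of-ratios scaling shifted all genes by under 0.1.

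With 1 or more UMIs to call cycling, the shares were 8.64% (allograft), 7.75% (native) and 11.7% (spleen); T cells made up 14.1% of native and 15.7% of spleen cycling cells, phagocytes 4.11% of spleen ones, and the log2 ratio of T cell shares, allograft over native, was -1.15. With 3 or more UMIs the shares were 2.07%, 2.58% and 5.69%. With 4 or more of the 19 mitotic genes they were 1.97%, 2.04% and 5.43%, T cells made up 36.9% of native cycling cells, and the log2 ratio of phagocyte shares was 0.49. Thinned, they were 0.939%, 1.15% and 3.70%, phagocytes made up 48.5% of the allograft and T cells 44.4% of the native cycling cells. With 1000 genes and 10% mitochondrial UMIs the native share was 4.44%.

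The median log2 ratio over all cells, allograft over native, was 0.0893 thinned (2 genes higher), 0.10 with cells scaled to 10000 UMIs, 0.12 at a minimum of 50 UMIs (0 higher), 0.54 without thymocyte-like cells (3 higher) and 0.51 in cells without Mki67 and Top2a UMIs (10 higher, 1 lower). In phagocytes it was 0.38 thinned (2 higher, 1 lower), 0.14 with median-of-ratios scaling (1 lower), and 0.42 with scaled cells (2 higher, 1 lower); at a minimum of 50 UMIs 0 were higher. In neutrophils it was -0.19 with the stricter cell filter, 0.47 with no minimum, -0.0899 with a minimum of 50 and -0.25 with a gate margin of 1. The 0.47 is the value of any gene with equal UMIs on both sides, such as Aurkb with 0 in each. It comes from the UMI totals of the gate and is not a measured difference. In T cells it was -1.83 thinned (13 lower), -1.76 at a minimum of 50 UMIs and -1.72 with a gate margin of 1.

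Without thymocyte-like cells T cells made up 12.4% of native cycling cells, and the T cell median was -0.72 (11 lower, 2 higher); Ccnb1 stood at 1.14 and Cdc20 at 1.39. Without all T cells with a thymocyte marker or with both Cd4 and Cd8 UMIs, an alternative chosen after seeing the data, the values were 4.52% and -0.16 (5 lower, 1 higher); Mcm3 stood at 0.30, Tk1 at 0.33, Cdk1 at 0.13, Ccnb2 at 0.21, Tpx2 at 0.33 and Cdc20 at 0.92. These use fewer native cells; the cause was not tested.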
